A study of Danio rerio with 12 samples.

Results

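The genes that copy the genome were examined in the eyes of adult zebrafish with and without a working akr7a3 gene. They are the rows of the deposited expression table whose names match a fixed set of DNA replication symbols (the origin recognition, MCM, GINS, primase, polymerase, clamp, RPA, ligation and deoxynucleotide genes, with the cycling-cell markers top2a and mki67). The rows were matched by name alone, and 54 of the 25432 genes in the table matched. The group itself was chosen with earlier results of these data known. RNA sequencing was run on 12 eyes, 6 akr7a3+/+ and 6 akr7a3-/-, and akr7a3 encodes an aldo-keto reductase that clears reactive aldehydes. The mutation was made with CRISPR/Cas9 in Tg(fli1:EGFP) fish, whose endothelial cells carry EGFP, and is an insertion in exon 1 of akr7a3 that ends the reading frame early. No age, sex, collection time or litter is given for the single eyes. The replicate numbers of the labels run 1, 2, 3, 4, 6 and 7 in akr7a3+/+ and 1, 4, 5, 7, 8 and 9 in akr7a3-/-, and no source says that eyes of different numbers came from different fish, so that p-values measure the spread between these eyes.

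Before a cell divides, the origin recognition complex, Cdc6 and Cdt1 load the ring-shaped MCM2-7 helicase onto DNA, and geminin stops a repeat loading in the same cycle. Cdc45 and GINS then switch the helicase on, primase and the DNA polymerases alpha, delta and epsilon copy the strands, and the sliding clamp PCNA with its loader RFC holds the polymerases on the template. Many of these genes are transcribed mainly in cycling cells. The fish eye keeps growing through adult life from stem cells of the ciliary marginal zone at the rim of the retina, and cells of the lens epithelium and the cornea also divide.

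Values are FPKM, fragment counts divided by gene length and by a total for the eye, so that levels of different genes can be set side by side. That total lay close to the sum of reads recovered on genes, 34935342 against 34930324 in akr7a3+/+ eye 1. The recovered totals ran from 21194609 to 35016388 reads per eye. The akr7a3 gene itself was at 1.35 to 2.65 FPKM in akr7a3+/+ eyes and at 0.267 to 0.414 FPKM in akr7a3-/- eyes, with no overlap (log2 fold change -1.56, SE 0.14, limma adjusted p = 2.66e-05, two-sided exact permutation p = 0.00216, the smallest that 924 splits allow). Genotypes were compared with limma on log2(FPKM + 0.5), a scale that understates the change of genes with low levels, and a gene was called changed at a Benjamini-Hochberg adjusted p under 0.05. Among the libraries, the akr7a3-/- eye 1 stood apart by nearly absent lens transcripts, and the akr7a3+/+ eyes 1 and 3 stood apart in the replication genes themselves, as described next. In bulk tissue, fewer cells of a type and less RNA per cell cannot be told apart.

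No replication gene was called changed with the genotype in these eyes. Of the 54 genes, 45 passed the filter on low levels (0.5 FPKM or more in 6 or more eyes), and 0 of the 45 were called changed, where 11.5% of all 18473 genes tested were called. In the same background 5.78% of genes were called higher and 5.77% lower in akr7a3-/- eyes. At an unadjusted p under 0.05 there were 10 of the 45 (22.2%), 3 higher and 7 lower, beside 26.2% of all genes, and limma's voom on recovered reads also gave 0 calls and 10 genes at that level. In no replication gene were the genotypes free of overlap, while 6.62% of all genes tested had none. The fitted log2 fold changes were below 0 for 32 genes and above 0 for 13, with a median of -0.14 beside -0.01 over all genes tested. The 95% interval of the fold change lay within -1 and 1 for 41 of the 45 genes and within -0.5 and 0.5 for 24. These limits hold only on the log2(FPKM + 0.5) scale, which understates changes at low levels. For cdc6 the fold change was -0.28 on that scale (95% interval -0.50 to -0.06) and -0.53 by voom.

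**Figure D1:**
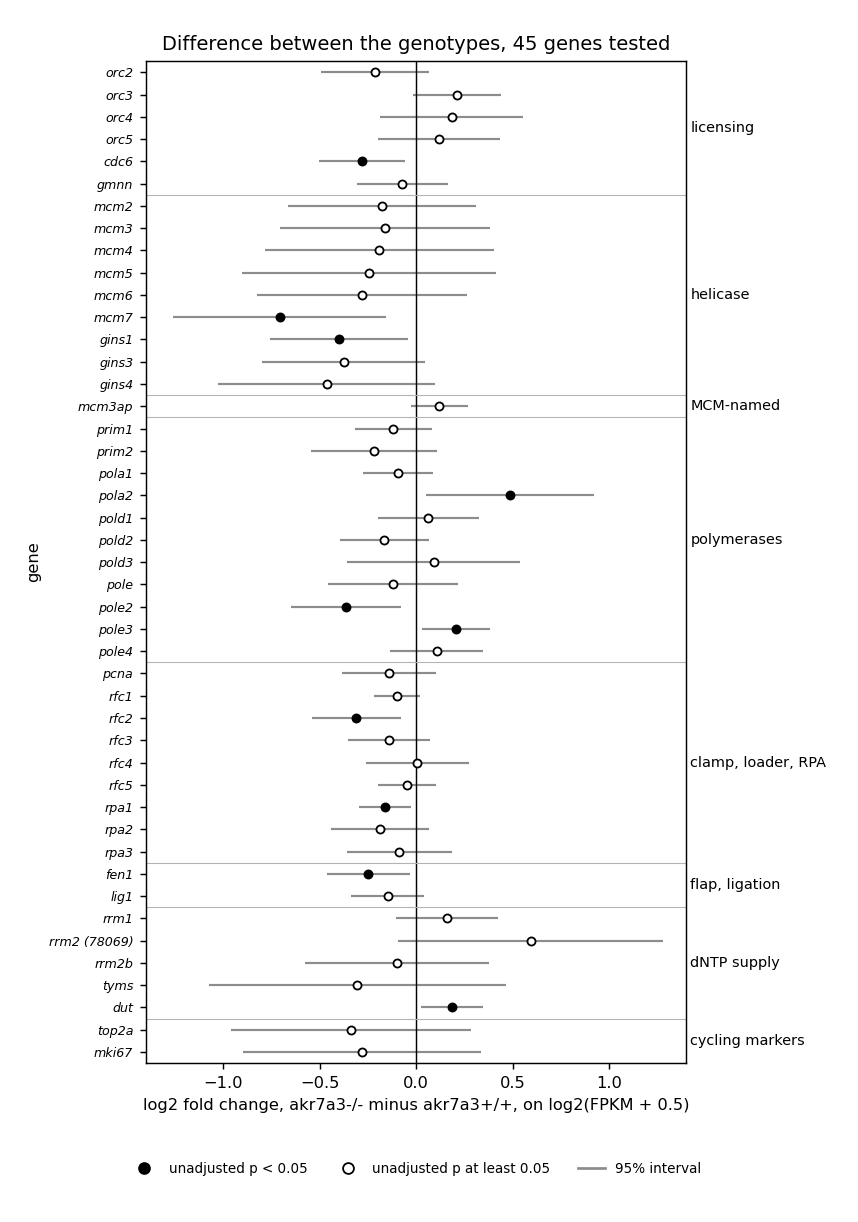
Log2 fold change, akr7a3-/- minus akr7a3+/+, of the 45 replication genes tested, on log2(FPKM + 0.5), with the gene on the vertical axis, grouped by role. Points are limma estimates, bars are 95% intervals, filled points have an unadjusted p under 0.05, and none of the 45 passed the adjusted threshold. All 9 helicase genes lie left of 0, and most intervals cross it.

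The main difference lay between single eyes. In 26 of the 54 genes the highest level was in akr7a3+/+ eye 1, in 5 it was in akr7a3+/+ eye 3, in 7 it was in another akr7a3+/+ eye and in 16 in an akr7a3-/- eye. Among genes tested, akr7a3+/+ eye 1 was the highest eye for 20 of 45 (44.4%), beside 14.0% of all genes tested. The pair of akr7a3+/+ eyes 1 and 3 lay above each of the other 10 eyes in 24 of the 54 genes, which is 19 of the 45 tested (42.2%), beside 7.37% of all genes tested. This pair was picked after the values were seen, so the counts are a description. The coefficient of variation was larger among akr7a3+/+ eyes for 73.3% of the replication genes tested and for 60.8% of all genes tested. The replication genes together took 0.0690% of the reads of akr7a3+/+ eye 1 and 0.0601% of those of eye 3, and between 0.0434% and 0.0555% in the other 10 eyes.

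**Figure D2:**
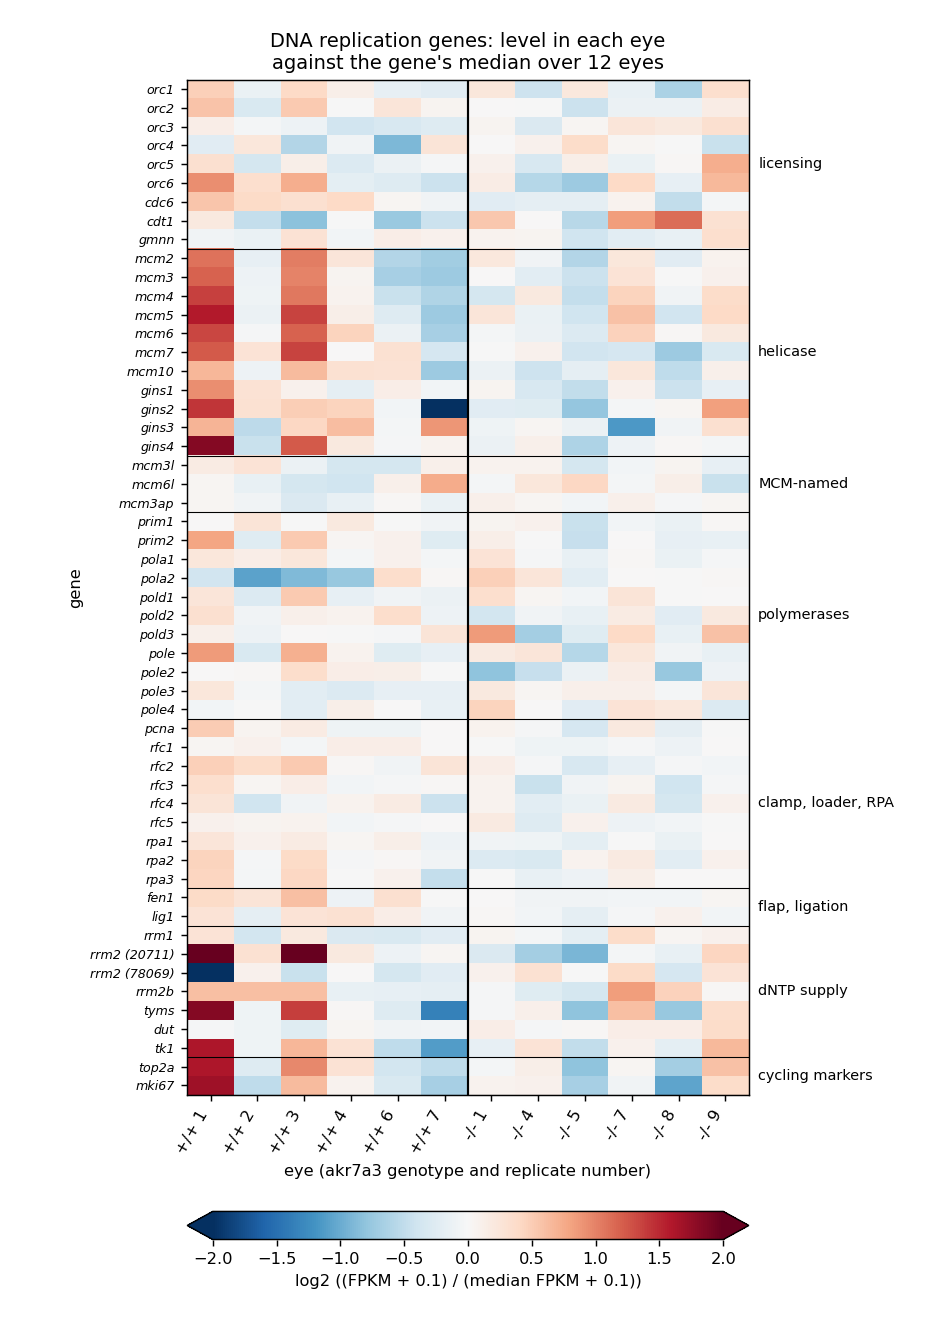
Level of each of the 54 replication genes in each eye, as log2 of its FPKM over the median of the 12 eyes with 0.1 added to both; rows are genes grouped by role and columns are eyes by genotype and replicate number. Red is above the gene's median and blue below it, with colours ending at -2 and 2. The akr7a3+/+ eyes 1 and 3 are red across mcm2 to mcm7, gins4, tyms, top2a and mki67, and pale across rfc1, rfc5 and mcm3ap.

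The median log2 fold change turned when these eyes were left out, a direction that their choice had set in advance. Both eyes are akr7a3+/+ and were picked for high levels in many of these genes. Leaving them out therefore lowers the akr7a3+/+ means of those genes. Without akr7a3+/+ eyes 1 and 3, an alternative chosen after the values were seen, the median of the 45 genes was 0.07, 24 genes were above 0 and 21 below, and 4 had an unadjusted p under 0.05. In that comparison 1 gene, pole3, was called higher in akr7a3-/- eyes (log2 fold change 0.26, limma adjusted p = 0.0431). The count of called genes with 1 eye left out ran from 0 to 2. It was 1 without akr7a3+/+ eye 1 (pole3), 2 without akr7a3+/+ eye 6 (pola2 and rfc2), 2 without akr7a3+/+ eye 7 (mcm7 and rpa1) and 1 without akr7a3-/- eye 7 (pole2). No gene was called in more than 1 of these single-eye settings.

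The eye-to-eye spread ran through most of the helicase genes. All 6 genes of the MCM2-7 ring, the motor that unwinds the DNA, were higher in akr7a3+/+ eyes 1 and 3 than in any other eye. Their summed level was 28.6 FPKM in akr7a3+/+ eye 1 and 27.4 FPKM in eye 3, and 11.95, 12.3, 10.9 and 7.70 FPKM in eyes 2, 4, 6 and 7. The akr7a3-/- eyes 1, 4, 5, 7, 8 and 9 were at 11.2, 11.4, 8.37, 12.5, 8.76 and 11.6 FPKM. The akr7a3-/- sums all lay within the range of the akr7a3+/+ sums, and eyes 1 and 3 stood at 2.53 and 2.42 times the median of the other 10 eyes (11.3 FPKM). Of the 11 helicase genes, which include GINS and mcm10, 9 were highest in akr7a3+/+ eye 1, and the 9 tested had fold changes from -0.71 to -0.16 with a median of -0.28.

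For mcm2, the lowest, median and highest levels were 0.444, 0.814 and 1.76 FPKM in akr7a3+/+ and 0.483, 0.779 and 0.933 FPKM in akr7a3-/- eyes. For mcm3 they were 0.737, 1.26 and 3.05 FPKM against 0.923, 1.28 and 1.57 FPKM. In both genes the medians of the genotypes were close and the akr7a3+/+ range enclosed the akr7a3-/- range (log2 fold changes -0.18, SE 0.23, and -0.16, SE 0.25, limma adjusted p = 0.672 and 0.739). For mcm4 the levels were 0.998, 1.56 and 4.21 FPKM in akr7a3+/+ and 1.09, 1.64 and 2.17 FPKM in akr7a3-/- eyes. For mcm5 they were 0.70, 1.22 and 3.88 FPKM against 0.903, 1.28 and 1.89 FPKM. The highest akr7a3+/+ level of each was in eye 1, above every akr7a3-/- level, and the medians were slightly higher in akr7a3-/- eyes. For mcm6 the levels were 0.834, 1.62 and 3.62 FPKM in akr7a3+/+ and 1.12, 1.37 and 1.92 FPKM in akr7a3-/- eyes. The fold changes of mcm4, mcm5 and mcm6 were -0.19, -0.24 and -0.28 (SE 0.28, 0.31 and 0.25, limma adjusted p = 0.717, 0.666 and 0.521). Without akr7a3+/+ eyes 1 and 3, the 5 genes mcm2 to mcm6 had fold changes above 0, from 0.10 to 0.23, and without eye 1 alone mcm3 and mcm4 were at 0.01.

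The subunit mcm7 differed from its partners in level and in the size of its fold change. It was at 3.98, 6.21 and 13.2 FPKM (lowest, median and highest) in akr7a3+/+ and at 3.03, 4.04 and 5.38 FPKM in akr7a3-/- eyes. The highest eye was akr7a3+/+ eye 3, followed by eye 1 at 12.1 FPKM, and the genotypes overlapped between 3.98 and 5.38 FPKM. The log2 fold change was -0.71 (SE 0.26), with an unadjusted p of 0.0161 and a limma adjusted p of 0.0951. It was -0.32 (limma adjusted p = 0.253) without eyes 1 and 3, and -0.86 (limma adjusted p = 0.0395) without akr7a3+/+ eye 7, the lowest of its group. The RNA level of mcm7 was 3.58 to 6.78 times the mean of mcm2 to mcm6 in akr7a3+/+ eyes and 2.37 to 4.50 times in akr7a3-/- eyes. The ring holds 1 copy of each subunit protein, and RNA levels do not count those proteins, which were not tested.

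**Figure D3:**
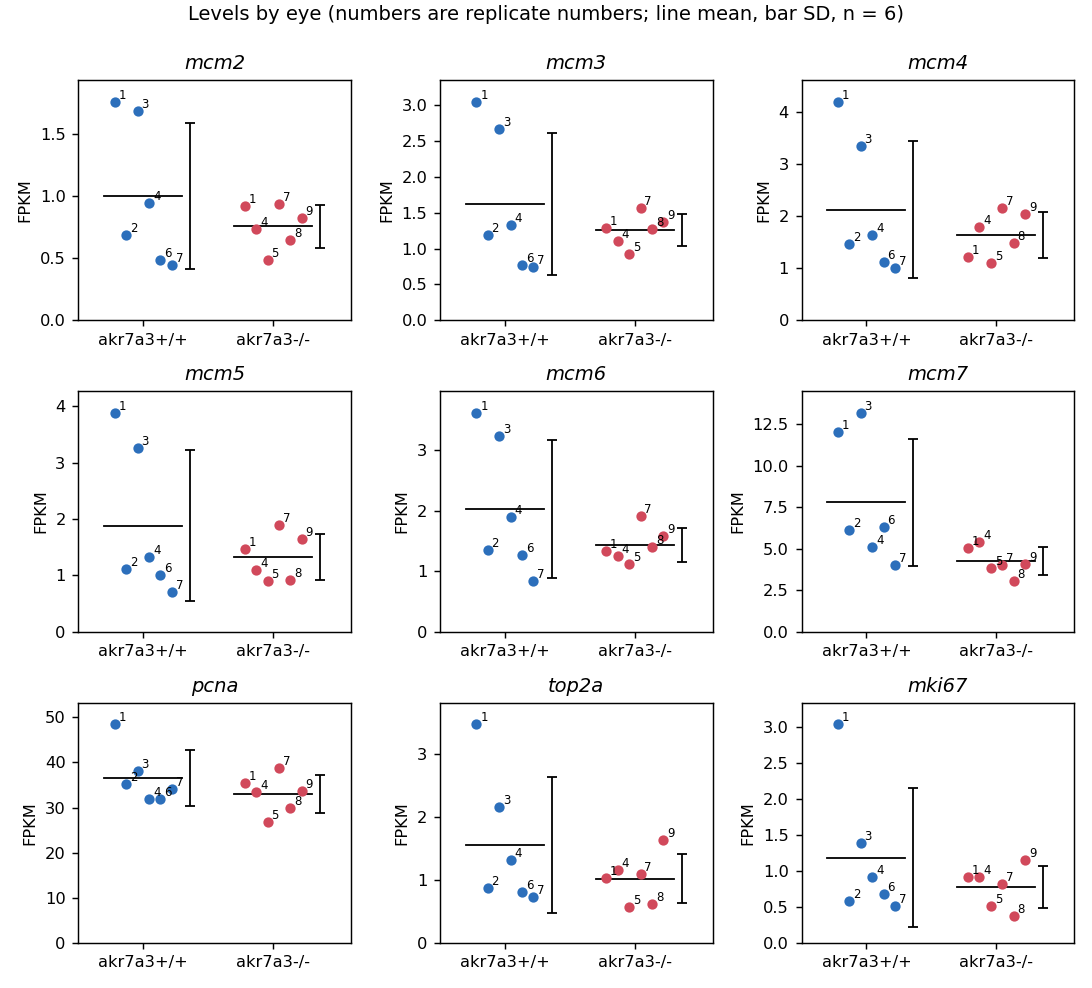
FPKM of mcm2 to mcm7, pcna, top2a and mki67 in each eye, by genotype, each vertical axis starting at 0. Points are eyes marked with their replicate numbers, the line is the mean and the bar the SD of 6 eyes. The akr7a3+/+ eyes 1 and 3 lie above all other eyes in each of the 6 MCM genes, top2a and mki67, while the level of pcna in eye 3 (38.2 FPKM) lies below that of akr7a3-/- eye 7 (38.8 FPKM).

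GINS links the helicase to the polymerase that follows it, and its 4 genes were uneven in level. The mean of gins1 was 9.25 FPKM, and those of gins2, gins3 and gins4 were 0.393, 1.08 and 1.05 FPKM. In akr7a3+/+ eye 1, gins1 reached 17.1 FPKM, above 7.93 to 11.0 FPKM in the other akr7a3+/+ eyes and 6.35 to 9.52 FPKM in akr7a3-/- eyes, so that the genotypes overlapped (log2 fold change -0.40, SE 0.17, limma adjusted p = 0.139). The gene gins4 was at 3.10 and 2.01 FPKM in akr7a3+/+ eyes 1 and 3 and between 0.485 and 0.930 FPKM in the other 10 eyes. Its fold change moved from -0.46 to -0.05 when those eyes were left out. The GINS genes and, below, pole2, pole3, pola2, rfc2, fen1, dut and tyms were named after their values were seen.

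Among the licensing genes, which choose and load the origins, the 6 tested had fold changes from -0.28 to 0.21. For cdc6, which opens the way for the MCM ring, the lowest, median and highest levels were 0.503, 0.704 and 0.826 FPKM in akr7a3+/+ and 0.347, 0.455 and 0.559 FPKM in akr7a3-/- eyes. Only the akr7a3+/+ eyes 6 and 7, at 0.547 and 0.503 FPKM, lay inside the akr7a3-/- range. The log2 fold change was -0.28 (SE 0.10), with an unadjusted p of 0.0178 and a limma adjusted p of 0.101. It rests on 36 to 107 reads per eye and was -0.23 without akr7a3+/+ eyes 1 and 3. The partner cdt1 was at 0.213, 0.303 and 0.530 FPKM in akr7a3+/+ and at 0.278, 0.644 and 1.09 FPKM in akr7a3-/- eyes, with the highest level in akr7a3-/- eye 8. It did not pass the filter, and the fit without a filter gave a fold change of 0.45 (unadjusted p = 0.0171, limma adjusted p = 0.123) on 11 to 93 reads per eye. Geminin, gmnn, which holds Cdt1 back, was at 1.37, 1.53 and 1.86 FPKM against 1.12, 1.46 and 1.94 FPKM, with full overlap (log2 fold change -0.07, SE 0.11, limma adjusted p = 0.733).

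The 6 origin recognition genes ranged in mean level from 0.159 FPKM (orc6) to 2.44 FPKM (orc4). The genes orc1 and orc6 were under the filter, and orc2 to orc5 had fold changes of -0.21, 0.21, 0.19 and 0.12 with limma adjusted p-values from 0.226 to 0.664. Like the helicase genes, orc1, orc2 and orc6 had their highest levels in akr7a3+/+ eyes 1 and 3. The names mcm3l, mcm6l and mcm3ap also match the rule. The first 2, MCM-like genes, were listed at no more than 0.190 FPKM in any eye, and mcm3ap, which in mammals encodes an mRNA export factor that binds MCM3 rather than a helicase subunit, was at 3.03 to 3.99 FPKM (log2 fold change 0.12, SE 0.07, limma adjusted p = 0.283).

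All 11 primase and polymerase genes were tested, with fold changes from -0.36 to 0.48 and a median of -0.09. Subunits of 1 enzyme differed in level. The catalytic gene of polymerase epsilon, pole, had a mean of 0.568 FPKM, while its histone-fold subunit pole3, which in mammals also serves in a chromatin remodelling complex, had 12.6 FPKM. The gene pole3 was at 10.3, 11.1 and 14.6 FPKM (lowest, median, highest) in akr7a3+/+ and at 12.2, 13.4 and 14.8 FPKM in akr7a3-/- eyes. Of the akr7a3+/+ eyes, only eye 1 reached the akr7a3-/- range, and the log2 fold change was 0.21 (SE 0.08, unadjusted p = 0.0267, limma adjusted p = 0.129). Without eye 1 it was 0.27 with a limma adjusted p of 0.0216.

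The subunit pola2 of the polymerase alpha and primase complex was at 3.35, 2.06, 2.34 and 2.57 FPKM in akr7a3+/+ eyes 1, 2, 3 and 4, and at 5.64 and 4.48 FPKM in eyes 6 and 7. The akr7a3-/- eyes were at 3.81 to 6.16 FPKM, so that akr7a3+/+ eyes 1 to 4 lay below and eyes 6 and 7 inside the akr7a3-/- range. Its log2 fold change of 0.48 (SE 0.20) was the largest positive value among the polymerase genes and did not pass the adjusted threshold (unadjusted p = 0.0318, limma adjusted p = 0.144). Without eye 6 it was 0.63 (limma adjusted p = 0.0350). The catalytic partner pola1 stood at 2.74 to 3.35 FPKM in akr7a3+/+ and 2.55 to 3.45 FPKM in akr7a3-/- eyes, without such a split. The polymerase epsilon subunit pole2 was at 1.85 to 2.38 FPKM in akr7a3+/+ and at 1.02 to 2.07 FPKM in akr7a3-/- eyes, where eyes 1, 4 and 8 were lowest (log2 fold change -0.36, SE 0.13, unadjusted p = 0.0168, limma adjusted p = 0.0980). It rests on 22 to 68 reads per eye.

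The clamp, its loader and RPA were the most abundant and the most even group. The clamp gene pcna had the highest mean of the 54 genes, 34.8 FPKM, with a lowest, median and highest level of 31.8, 34.7 and 48.4 FPKM in akr7a3+/+ and 26.7, 33.5 and 38.8 FPKM in akr7a3-/- eyes. Its highest eye was akr7a3+/+ eye 1, and the other 11 eyes of both genotypes overlapped (log2 fold change -0.14, SE 0.11, limma adjusted p = 0.463). The single-strand binding gene rpa1 was at 16.3, 18.6 and 20.5 FPKM against 15.2, 16.6 and 17.5 FPKM. In rpa1 only akr7a3+/+ eye 7, the lowest of its group, lay inside the akr7a3-/- range (log2 fold change -0.16, SE 0.06, unadjusted p = 0.0218, limma adjusted p = 0.114). The clamp loader gene rfc2 had the lowest adjusted p of all replication genes, with 4.28 to 6.49 FPKM in akr7a3+/+ and 3.61 to 4.93 FPKM in akr7a3-/- eyes (log2 fold change -0.31, SE 0.11, limma adjusted p = 0.0818). The akr7a3+/+ eyes 4 and 6 lay inside the akr7a3-/- range of rfc2. Its fellow subunits rfc1, rfc3, rfc4 and rfc5 had fold changes from -0.14 to 0.01. In the 9 genes of this group, the highest eye was between 1.1 and 1.44 times the median of the 12 eyes, against 1.88 to 3.88 times in the helicase genes.

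Flap removal and ligation join the short pieces of the lagging strand. The flap endonuclease gene fen1 was at 2.60 to 4.25 FPKM in akr7a3+/+ and at 2.64 to 2.85 FPKM in akr7a3-/- eyes. The akr7a3-/- levels were tightly grouped inside the lower part of the akr7a3+/+ range (log2 fold change -0.25, SE 0.10, unadjusted p = 0.0274, limma adjusted p = 0.131). The ligase gene lig1 was at 4.21 to 5.94 FPKM against 4.21 to 5.06 FPKM (log2 fold change -0.15, limma adjusted p = 0.320).

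Deoxynucleotides are made by ribonucleotide reductase, whose large subunit is Rrm1 and whose small subunit is Rrm2 in dividing cells or, in mammals, the p53-induced Rrm2b in resting ones. The large subunit rrm1 was at 5.19, 5.62 and 8.16 FPKM (lowest, median, highest) in akr7a3+/+ and at 5.88, 6.97 and 8.70 FPKM in akr7a3-/- eyes. The akr7a3+/+ eyes 1 and 3, at 8.16 and 7.75 FPKM, lay among the akr7a3-/- levels, and the other 4 under the lowest of them (log2 fold change 0.16, SE 0.12, limma adjusted p = 0.445). Without eyes 1 and 3 it was 0.33 (limma adjusted p = 0.0527). The mean of rrm2b, 21.1 FPKM, was more than that of both rrm2 rows together in either genotype. It was at 27.5, 27.4 and 27.4 FPKM in akr7a3+/+ eyes 1, 2 and 3 and at 16.3, 16.2 and 16.0 FPKM in eyes 4, 6 and 7. The akr7a3-/- eyes 1, 4, 5, 7, 8 and 9 were at 17.8, 15.2, 14.1, 32.4, 24.8 and 18.3 FPKM. The akr7a3+/+ eyes thus fell at 2 levels with a gap between them, and the akr7a3-/- eyes spread below, between and above those levels (log2 fold change -0.10, SE 0.22, limma adjusted p = 0.822).

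The table has 2 rows named rrm2, and the eyes divided their reads between them in different ways. The row ENSDARG00000078069 was at 0.0825 FPKM (7 reads) in akr7a3+/+ eye 1 and 1.51 FPKM in eye 3, and at 1.64 to 2.24 FPKM in the other akr7a3+/+ and 1.65 to 2.79 FPKM in the akr7a3-/- eyes. The row ENSDARG00000020711 was at 5.43 FPKM (464 reads) in akr7a3+/+ eye 1 and 1.43 FPKM in eye 3, and at no more than 0.156 FPKM in the other 10 eyes. In akr7a3+/+ eye 1 nearly all rrm2 signal was therefore on the row that was near 0 elsewhere, and in eye 3 it was shared between the rows. The sum of both rows was 5.51 FPKM in akr7a3+/+ eye 1, 2.94 FPKM in eye 3 and 1.72 to 2.87 FPKM in the other 10 eyes. How reads that fit several places were counted is not given in the sources used here, so the value of either row is uncertain where the rows are alike in sequence, which was not tested. The row ENSDARG00000078069 passed the filter (log2 fold change 0.59, SE 0.32, limma adjusted p = 0.263, and 0.20 without eyes 1 and 3), and ENSDARG00000020711 did not.

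**Figure D4:**
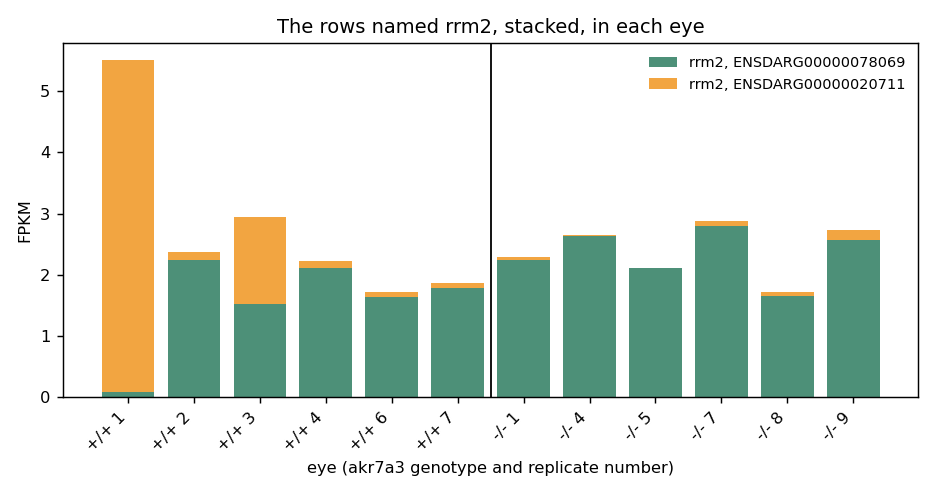
FPKM of the rows named rrm2 in each eye, stacked from 0, with the eyes by genotype and replicate number on the horizontal axis. Green is ENSDARG00000078069 and orange ENSDARG00000020711; orange makes up nearly all of the bar of akr7a3+/+ eye 1 (5.43 of 5.51 FPKM) and about the same height as green in eye 3.

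Thymidylate synthase, tyms, which makes the thymine nucleotide, was at 3.69 and 2.66 FPKM in akr7a3+/+ eyes 1 and 3 and between 0.316 and 1.5 FPKM in the other 10 eyes (log2 fold change -0.31, SE 0.36, limma adjusted p = 0.638). Leaving those eyes out turned it to 0.22. The salvage kinase tk1 was under the filter and also highest in akr7a3+/+ eye 1, at 1.59 FPKM. The gene dut, whose enzyme keeps uracil out of DNA, was at 4.90 to 6.01 FPKM in akr7a3+/+ and at 5.76 to 7.58 FPKM in akr7a3-/- eyes (log2 fold change 0.19, SE 0.07, unadjusted p = 0.0250, limma adjusted p = 0.124).

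Topoisomerase II alpha, top2a, which untangles the copied DNA, and mki67, the Ki-67 antigen of cycling cells, are read as markers of dividing cells. The lowest, median and highest levels of top2a were 0.720, 1.1 and 3.47 FPKM in akr7a3+/+ and 0.564, 1.06 and 1.64 FPKM in akr7a3-/- eyes. Those of mki67 were 0.507, 0.799 and 3.04 FPKM in akr7a3+/+ and 0.366, 0.866 and 1.15 FPKM in akr7a3-/- eyes. Both were highest in akr7a3+/+ eye 1, next in eye 3, and overlapped in the other eyes (log2 fold changes -0.34, SE 0.29, and -0.28, SE 0.29, limma adjusted p = 0.498 and 0.584). Without eyes 1 and 3 they were 0.06 and 0.11.

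The genes that stood far above their median in 1 eye were mostly genes of low level. Of the 54 genes, 16 had a highest eye at 2 or more times the median of the 12 eyes, and 13 of these were highest in akr7a3+/+ eye 1 and 1 in eye 3. Of the 16 genes, 15 had a mean under 3 FPKM, mcm7 being the other. Low levels were common in the whole group, where the median of the 54 means was 1.91 FPKM. Another 25 genes stayed under 1.5 times, among them pcna, rpa1, rpa2, rpa3, rfc1 to rfc5 and rrm1, and 6 of the 25 were highest in akr7a3+/+ eye 1. Only 4 genes, pcna, rrm2b, rpa1 and pole3, had a mean of at least 10 FPKM, and 14 had a mean under 1 FPKM.

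Genes of neighbouring steps, from 6 lists of 134 genes, were counted in the same comparison. Of 89 tested, 13 were called (14.6%), 8 higher and 5 lower in akr7a3-/- eyes, beside the 11.5% of all genes. The lists were chosen with earlier results of these data known, so the counts are a description. Among 12 tested replication factors outside the name rule, such as timeless and topbp1, 1 was called, mcmbp, whose product binds the MCM complex (log2 fold change 0.39, SE 0.09, limma adjusted p = 0.0147). The list's median was -0.04.

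The mitosis list followed the same eyes as the helicase. Of its 22 genes tested, 18 were highest in akr7a3+/+ eye 1 (81.8%), and for 15 the pair of akr7a3+/+ eyes 1 and 3 was on top. The summed level of the list was 92.9 FPKM in akr7a3+/+ eye 1, 70.8 FPKM in eye 3 and 48.1 to 70.3 FPKM in the other 10 eyes. Its largest part is a ube2c row (ENSDARG00000101618), which was not raised in eyes 1 and 3, at 26.6 and 31.5 FPKM beside a median of 31.8 FPKM. The gene melk was below its median of 3.68 FPKM in both eyes, at 2.10 and 1.76 FPKM. The mitotic kinase gene cdk1 was at 3.54 FPKM in akr7a3+/+ eye 1, 3.34 times its median over the 12 eyes (1.06 FPKM). The only called gene of the list, hmmr, which encodes a spindle and hyaluronan-binding protein in mammals, went the other way among the eyes. It was at 2.19 to 4.27 FPKM in akr7a3+/+ eyes, with eyes 1 and 3 at 2.19 and 2.45 FPKM, and at 4.32 to 6.90 FPKM in akr7a3-/- eyes, with no overlap (log2 fold change 0.74, SE 0.16, limma adjusted p = 0.00924). The median fold change of the list was -0.21, and 4.55% of its tested genes were called, beside 11.5% of all genes.

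Chromatin assembly genes were called in both directions, 2 of 10 tested, with a median of -0.15, but 1 was called without a filter and when akr7a3+/+ eye 1, 3, 4 or 6 or akr7a3-/- eye 4, 5, 8 or 9 was left out, and 3 without akr7a3+/+ eye 2. The histone-binding rbbp4 rose from 21.0 ± 2.62 to 27.9 ± 3.83 FPKM (SD, n = 6 each; log2 fold change 0.40, limma adjusted p = 0.0195). The histone chaperone nasp fell from 5.76 ± 0.748 to 4.39 ± 0.632 FPKM (SD, n = 6 each; log2 fold change -0.36, limma adjusted p = 0.0387). In the nucleotide supply list 1 of 14 was called, the CTP synthase ctps1b, which fell from 13.6 ± 1.30 to 8.29 ± 0.653 FPKM with no overlap (SD, n = 6 each; log2 fold change -0.68, limma adjusted p = 0.000128), and the median was -0.09, with 2 called without akr7a3+/+ eye 7 or akr7a3-/- eye 7. Of 13 E2F, Rb and MuvB regulators, the transcription factors and repressors that time replication genes, 1 was called. This was the E2F partner tfdp1a, at 8.73 to 11.3 FPKM in akr7a3+/+ and 12.1 to 15.0 FPKM in akr7a3-/- eyes with no overlap (log2 fold change 0.39, SE 0.08, limma adjusted p = 0.00519). The median of the list was -0.02. The count was 2 with median-of-ratios scaling, quantile normalization or voom, and without akr7a3+/+ eye 1 or akr7a3-/- eye 1.

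The genes that start or hold back S phase held most of the calls, 7 of 18 tested (38.9%), 4 higher and 3 lower, with a median of -0.14. Of all genes tested 11.5% were called, 5.78% higher and 5.77% lower. This list was chosen with earlier results of these data known, so its share of calls is a description. The count of the list was 6 without a filter and ran from 6 to 8 with 1 eye left out. On the eyes numbered 1, 4 and 7 it was 2 without a replicate block and 0 with it. Cyclin E2, ccne2, which drives entry into S phase, went up from 1.4 ± 0.312 to 6.89 ± 1.21 FPKM (SD, n = 6 each), without overlap (log2 fold change 1.96, SE 0.13, limma adjusted p = 2.41e-06). The cell cycle inhibitors cdkn1d and cdkn1a rose too, with log2 fold changes of 1.52 and 0.88 (limma adjusted p = 0.000259 and 0.00261). The kinase wee1, which delays mitosis, rose by 0.51 on the log2 scale (limma adjusted p = 0.0380). The growth regulators mycb and myca fell by 1.24 and 0.98 on the log2 scale (limma adjusted p = 0.000242 and 0.00338), and the inhibitor cdkn1bb fell by 0.24 (limma adjusted p = 0.00923). A driver and 2 inhibitors of S phase were thus among the rises, and the replication genes had 0 calls in the same eyes.

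**Figure D5:**
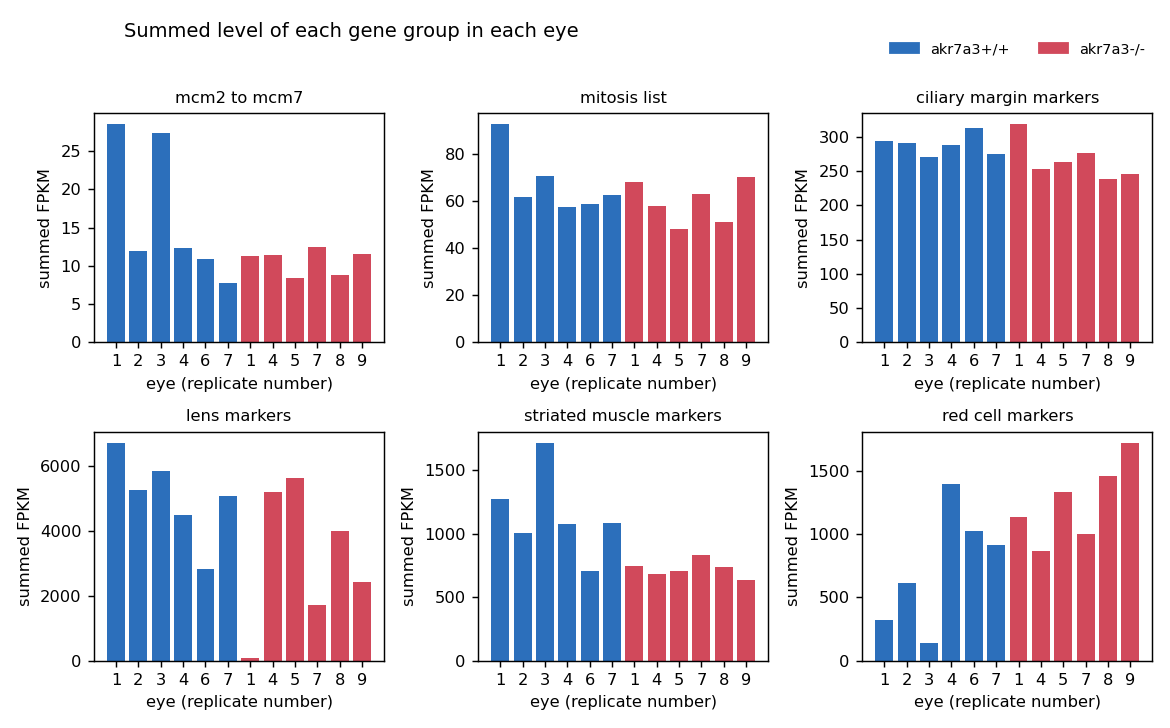
Summed FPKM of mcm2 to mcm7, the mitosis list and 4 of the marker lists in each eye, blue for akr7a3+/+ and red for akr7a3-/- eyes, numbered by replicate; each vertical axis starts at 0. The MCM genes and the mitosis list are highest in akr7a3+/+ eyes 1 and 3, and the lens markers are near 0 in akr7a3-/- eye 1. The summed ciliary margin markers are highest in akr7a3-/- eye 1 and akr7a3+/+ eye 6. Most of that sum comes from abundant rows such as pax6a and rx1, whose specificity in adult eyes was not tested.

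Markers of the tissues in the eye were set beside these values. The summed level of 15 ciliary margin and retinal progenitor rows, with rx2 and sox2 among them, was 271 to 313 FPKM in akr7a3+/+ and 239 to 319 FPKM in akr7a3-/- eyes. Among the 12 eyes it ranked 3 in akr7a3+/+ eye 1 and 8 in eye 3. Of 12 tested, 0 were called and 3 had an unadjusted limma p under 0.05, beside 26.2% of all genes. The highest sums were in akr7a3-/- eye 1 (319 FPKM) and akr7a3+/+ eye 6 (313 FPKM), whose MCM2-7 sums of 11.2 and 10.9 FPKM ranked 8 and 9. Most of this sum comes from abundant rows such as pax6a and rx1, with akr7a3+/+ means of 100.5 and 81.3 FPKM. Whether these abundant rows mark only progenitors in adult eyes was not tested, so the sum is no measure of the ciliary margin. The akr7a3+/+ means of atoh7, foxn4 and ascl1a were 1.13, 0.670 and 0.674 FPKM, so the sum hardly reflects them. The size of the ciliary margin was not tested, and single markers differed. The marker rx2 had the pair of akr7a3+/+ eyes 1 and 3 on top, at 43.7 and 48.5 FPKM, beside at most 39.8 FPKM in akr7a3-/- eyes and a median of 32.8 FPKM over the 12 eyes, and it was the only 1 of the 12 tested with that pair on top. The rows of lin28a were at 0 in every eye.

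The summed lens and muscle markers were highest in the same akr7a3+/+ eyes, but single markers differed. The pair of akr7a3+/+ eyes 1 and 3 was on top for 3 of 12 lens and 5 of 11 muscle markers tested. Both cryaa and mipa were highest in akr7a3-/- eye 5, at 1828 and 546 FPKM. The 12 lens markers, cryaa and mipa among them, summed to 6700 and 5841 FPKM in akr7a3+/+ eyes 1 and 3 and to no more than 5629 FPKM in the other 10. In akr7a3-/- eye 1 they summed to 77.4 FPKM, where the other akr7a3-/- eyes had 1705 to 5629 FPKM, and its MCM2-7 sum of 11.2 FPKM was still inside the range of the other akr7a3-/- eyes, 8.37 to 12.5 FPKM. The 12 striated muscle markers summed to 1274 and 1714 FPKM in akr7a3+/+ eyes 1 and 3 and to 637 to 1080 FPKM in the other 10, and 6 of 11 tested were called lower in akr7a3-/- eyes, beside 5.77% of all genes, the largest fall being that of myhz2 (log2 fold change -1.11, limma adjusted p = 0.0249). The 8 red cell rows summed to 320 and 139 FPKM in akr7a3+/+ eyes 1 and 3 and to 617 to 1720 FPKM in the other 10. Of these, slc4a1a was called higher in akr7a3-/- eyes (log2 fold change 1.19, limma adjusted p = 0.0436). The part of lens, muscle and blood in the levels of the replication genes was not tested.

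Corneal and skin epithelial markers had their lowest sum in akr7a3+/+ eye 1, 1863 FPKM beside 2047 to 3398 FPKM in the 10 eyes other than akr7a3+/+ 1 and 3. The sum ranked 9 in eye 3, and ppl was called higher (log2 fold change 0.48, limma adjusted p = 0.0455). Most of the sum in eye 1 comes from krt5 (1206 FPKM), and single markers differed. In that eye krt5 and epcam were at the lowest akr7a3+/+ level, and krt4 and cdh1 at the highest. Mueller glia can divide again after injury in fish. Their 6 markers summed to 911 to 1043 FPKM in akr7a3+/+ and to 1054 to 1286 FPKM in akr7a3-/- eyes. Most of this sum comes from apoeb and glula, which overlapped between the genotypes and were not called (limma adjusted p = 0.267 and 0.232). Of the 6, 1 was called (16.7%, beside 11.5% of all genes). This was rlbp1a, higher in akr7a3-/- eyes (log2 fold change 0.60, limma adjusted p = 0.00118). The part of Mueller glia in the cell cycle calls was not tested. Their summed markers ranked 8 and 10 in akr7a3+/+ eyes 1 and 3. Summed leukocyte markers ranked 4 and 5 there, and 0 of 6 were called, none with an unadjusted p under 0.05. Most of this sum comes from cd74a (445 FPKM in akr7a3+/+ eye 1), and single markers differed. In that eye csf1ra and mpeg1.1 were at the highest level of all eyes, 5.63 and 10.7 FPKM. Both ptprc and coro1a were at the highest akr7a3+/+ level there, and lcp1, cd74a, mpx and lyz were not. By a table of another assembly, matched by name for all 54 genes, orc2, cdc6, pole4, rfc4 and tk1 share chromosome 11 with akr7a3.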

How the data were processed

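Gene expression in 12 eyes was read by strand-specific sequencing of polyadenylated RNA on the DNBSEQ platform. The authors aligned these reads with HISAT2 to the GRCz11 build, used featureCounts 2.0.3 to count them on genes, and deposited a table of FPKM for 12 eyes. The annotation release and the handling of strand and of reads that fit several places are not given in the sources used here. Their methods name limma for the comparison.

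From the steps that 1 read makes in the deposited FPKM values, whole reads (within 0.02 of a whole number) were recovered for all 24681 genes above 0. The totals per eye set the precision, and genes with few reads are less precise.

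The 18473 genes at 0.5 FPKM or more in 6 or more eyes entered a limma fit (limma 3.58.1, R 4.3.3) of log2(FPKM + 0.5) on the genotype alone, with a trend in the variance, and p-values were adjusted over all of them. Intervals are 95% intervals of the fold change. The replication genes, lists and tests were chosen with earlier results of these data known. Values by eye are given for called genes, genes without overlap, mcm2 to mcm7, pcna, rrm1, rrm2, cdc6, cdt1, gmnn, top2a, mki67 and the 3 genes with the highest mean. From each list the called genes, at most 4 per direction, and defining markers are named. Other genes were named after their values were seen.

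Alternatives were pseudocounts of 0.1 and 1, no filter, a mean of at least 1 FPKM, median-of-ratios scaling, quantile normalization, voom on recovered reads, the robust option, leaving out each eye and a block on shared replicate numbers. Leaving out akr7a3+/+ eyes 1 and 3 together was added after seeing the data. Promoter and protein sequences are not analysed here, and 1 ciliary margin marker is not reported here. The steps were tested on simulated data. In simulated eyes the fit called 82.2% of genes given a log2 fold change of 1 and 38.7% of those given 0.5. Many changes of the smaller size would thus be missed. These genes were drawn from all genes that passed the filter, so the shares are not those of the replication genes.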

Additional observations from a re-analysis of the deposited data

Results flagged for a closer look

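Each gene's 6 eyes of a genotype were searched for a single eye whose gap to its nearest neighbour took a larger part of the whole range than Dixon's 95% limit for 6 values. For independent, normally distributed values about 1 in 20 groups pass this limit, but the groups here share the same 12 eyes. Of 108 groups, 11 had such an eye, a count given as a description. In akr7a3+/+ eye 1 these were gins1 at 17.1 FPKM, mki67 at 3.04 FPKM and both rows of rrm2, ENSDARG00000020711 at 5.43 FPKM above and ENSDARG00000078069 at 0.0825 FPKM below the rest. The pole2 level of akr7a3+/+ eye 3, 2.38 FPKM, and the mcm6l level of akr7a3+/+ eye 7, 0.190 FPKM, stood above the others. In akr7a3-/- eye 9, orc5 was high at 3.36 FPKM, gins2 at 0.651 FPKM and dut at 7.58 FPKM. The pola1 level of akr7a3-/- eye 1, 3.45 FPKM, stood above and the gins4 level of akr7a3-/- eye 5, 0.485 FPKM, below the rest of the group. In the MCM2-7 genes no eye of either genotype met this limit, and in the akr7a3+/+ groups eyes 1 and 3 were high together.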

How the results depend on the processing

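The count of 0 called replication genes held under the other pseudocounts, filters, scalings, voom and the robust option. With 1 eye left out it ran from 0 to 2, and without akr7a3+/+ eyes 1 and 3 it was 1. Those 2 eyes were picked for high levels in many of these genes, so turns upward without them were built into the choice. Leaving out those 2 eyes turned the log2 fold changes of mcm2 to 0.15, mcm3 to 0.23, mcm4 to 0.23, mcm5 to 0.23, mcm6 to 0.10, mki67 to 0.11, rrm2b to 0.086, top2a to 0.064, tyms to 0.22, pole to 0.085 and rpa3 to 0.079. With 1 eye left out, mcm3 ran from -0.292 to 0.012 and mcm4 from -0.324 to 0.006, both turning without akr7a3+/+ eye 1. With 1 eye left out, rfc4 ran from -0.056 to 0.063, turning in 5 of 12 fits, and pold3 from -0.050 to 0.243, turning without akr7a3-/- eye 1. The eyes numbered 1, 4 and 7 occur in both genotypes, but same-numbered eyes did not deviate together (correlations 0.08, -0.20 and 0.07), and only 1 of the 3 akr7a3-/- eyes matched its own number best. With a replicate block on these 6 eyes, 1 gene of all 18473 was called, against 126 without the block and 2133 with all 12 eyes, and 0 replication genes and 0 list genes, against 2 list genes without the block and 13 with all eyes. The akr7a3 fold change under the block was -1.38 (limma adjusted p = 0.138), and with and without the block on these eyes rrm2b was at 0.10, orc5 at -0.11, pola1 at 0.039 and rpa3 at 0.004, each turned from its value with all eyes. Fewer eyes enter these fits. Depth limits genes such as pole2, cdc6 and cdt1, with under 110 reads in every eye.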
